A study of Homo sapiens with 2 samples.

Results

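The 50 genes of lysosomes and autophagy described here were followed in human corneal epithelial cells (HCECs) given a miR-184 mimic or a negative control (NC). They were taken by name, for the known role of their proteins, at a time when earlier results of these data were known. A gene was measured where an array feature carried its symbol and no other, and the feature with the highest mean signal stood for it. In this way 49 of the 50 were measured, among 22368 named genes in all. The remaining gene, *GLB1*, shares its feature with a second symbol and has no value here.

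The cells were SV40-HCECs, a corneal epithelial line immortalized with SV40. One culture received 50 nM miR-184 mimic and one received 50 nM NC, and RNA was taken from both at 48 h. Both groups share the line, the lipid reagent and the medium with serum, insulin and EGF. There was 1 array per condition. No error, test or *P*-value can therefore be given, and the effect of miR-184 cannot be told apart from any other difference between the 2 cultures. A gene is called lower when its signal with miR-184 was at least 1.5-fold below that with NC, and higher at the mirror of it. The study used the same fold for its lower genes, but together with a *P*-value criterion that is not applied here. On the log2 scale the threshold is a difference of 0.58 in either direction.

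Lysosomes are acidic compartments in which hydrolases break down proteins, glycans and lipids that arrive by endocytosis or by autophagy. In autophagy a membrane closes around cytoplasm or organelles and then fuses with the lysosome. A kinase complex starts the process, a lipid kinase marks the site with PI3P, conjugation enzymes attach ATG8 proteins to the membrane, and receptors bind both ATG8 and cargo. TFEB and TFE3 are transcription factors that can switch on many lysosomal and autophagy genes together. In the corneal epithelium, as in other epithelia, both pathways clear worn proteins and organelles.

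The mature miR-184 is printed because it is the agent that separates the cultures, with its seed, bases 2 to 8, in capitals. The letters and the place, chr15:79209840-79209861 on the plus strand of GRCh38.p14, are those of RefSeq. The seed pairs with its reverse complement in target transcripts. No such sites were searched in the 50 genes.
hsa-miR-184: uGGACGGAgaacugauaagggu

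The 2 arrays had median log2 signals of 3.68 (miR-184) and 3.61 (NC) over 65854 features, and their range ended at 19.93 in both. The corneal differentiation markers *KRT3*, *KRT12*, *PAX6* and *ALDH3A1* read between 3.29 and 3.82, close to those medians, so that they do not mark these cells as differentiated corneal epithelium. Of 7 general epithelial markers measured, *KRT14* read 3.75 and 3.56, and the other 6, among them *KRT8*, *KRT18* and *CDH1*, read between 12.35 and 16.83. Of these 6, *KRT5* (0.88) and *CDH1* (0.75) were higher with miR-184 and *KRT19* (-0.92) was lower, and the part of these differences in those of the 49 genes was not tested. The 4 leukocyte and macrophage markers, *PTPRC*, *CD14*, *CD163* and *CSF1R*, read between 3.09 and 4.73 in both arrays, with *CD14* at 3.78 with miR-184 and 3.19 with NC.

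Of the 49 measured genes 6 were lower with miR-184, 3 were higher and 40 lay between. The lower genes were *CTSS*, *TPP1*, *ASAH1*, *GABARAPL1*, *GLA* and *CTSD*, and the higher genes were *WIPI1*, *CTSL* and *BECN1*. The 6 lower genes were 12.2% of those measured, where 4.17% of all 22368 named genes were lower. The 3 higher genes were 6.12%, where 3.74% of all named genes were higher. All measured genes but *TFEB* had a mean signal at or above the median of the named genes, and among the 11184 named genes at that level 7.77% were lower and 6.25% higher. The share of higher genes was thus close to that background. The share of lower genes was above it, but rests on only 6 genes. *TPP1* is on a list that the study published of genes chosen as lower on these arrays. Without it 5 of 48 genes were lower (10.4%), closer to the 7.77%. The median difference of the 49 genes was -0.23 on the log2 scale, against 0.04 over all named genes and -0.02 over those at or above the median signal. In all, 34 genes lay below 0 (69.4%) and 15 above. The share below 0 was 40.5% over all named genes and 51.2% over those at or above the median signal. The arrays measured RNA of whole cultures, in which fewer cells with a transcript and less of it per cell cannot be told apart.

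The shift was uneven between the 2 arms of the pathway. Of 26 genes for lysosomal membrane proteins, enzymes and cofactors, 22 lay below 0 (84.6%), with a median of -0.39. Of 23 genes for autophagy proteins and for TFEB and TFE3, 12 lay below 0 and 11 above, with a median of -0.04 that turned to 0.0096 under quantile normalization. Of the lysosomal genes 5 were lower (19.2%) and 1 was higher (3.85%), and of the autophagy genes 1 was lower (4.35%) and 2 were higher (8.7%). The shares of lower and higher genes were 7.77% and 6.25% over named genes at or above the median signal. Over all named genes they were 4.17% and 3.74%. The autophagy counts, of 1 and 2 genes, were thus near the background. The lysosomal shares rest on 5 lower genes and 1 higher gene. The difference between the arms was not tested.

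**Figure D1:**
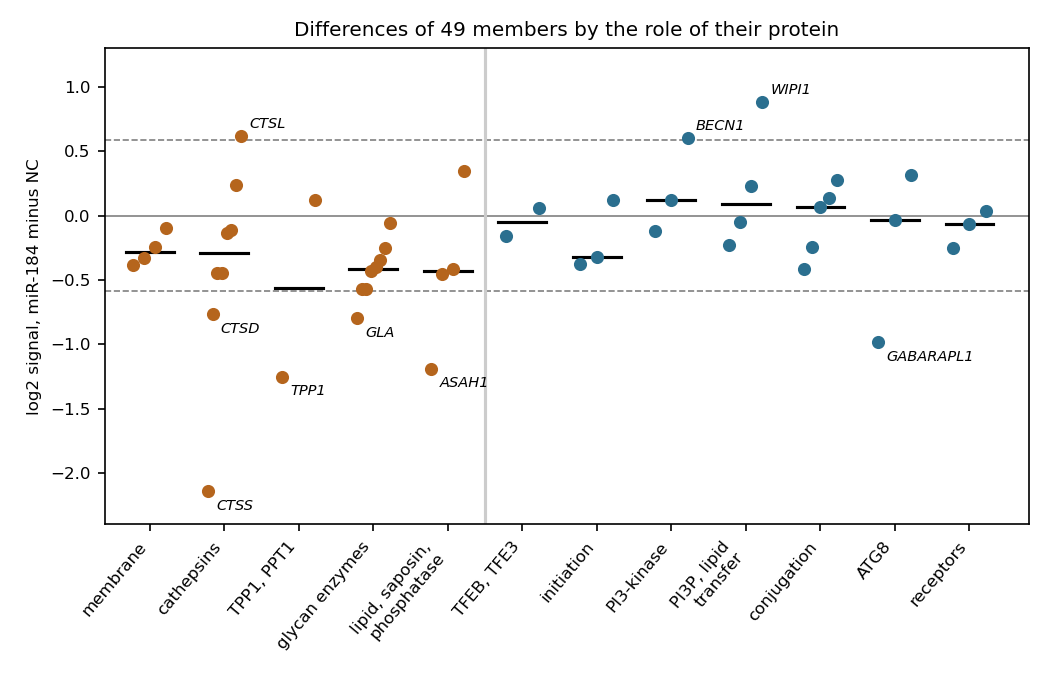
Difference of the log2 signals (y axis, miR-184 minus NC) for each of the 49 measured genes, grouped on the x axis by role, with lysosomal proteins in brown and autophagy genes with *TFEB* and *TFE3* in blue. Bars are medians and dashed lines the 1.5-fold threshold at 0.58 and -0.58; 22 of the 26 brown points and 12 of the 23 blue points lie below 0.

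**Figure D2:**
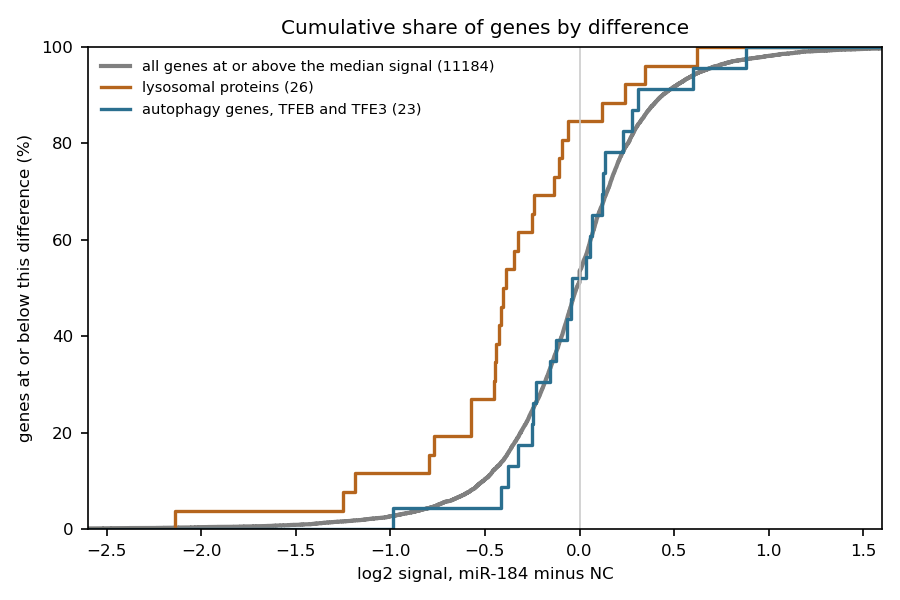
Cumulative share of genes (y axis, percent) at or below each difference of log2 signals (x axis) for 26 lysosomal genes (brown), 23 autophagy genes with *TFEB* and *TFE3* (blue) and the 11184 named genes at or above the median signal (grey). The brown curve lies to the left over most of its length, with a median of -0.39 against -0.02 for the grey curve, while the blue curve runs close to the grey one with a median of -0.04.

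The transcripts of the 2 regulators differed little between the cultures. *TFEB* read 4.06 with miR-184 and 4.01 with NC, a difference of 0.06. That level was below the median of 4.24 for named genes. *TFE3* read 5.39 and 5.54, a difference of -0.16. Both factors are controlled largely by phosphorylation and by their place in the cell, which an array of transcripts does not measure.

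TFEB and TFE3 are known to bind the E-box CACGTG, often as the longer palindrome TCACGTGA, near the start of lysosomal genes. Both motifs read the same on either strand, and every TCACGTGA holds a CACGTG. Promoters from 250 bases before to 50 bases after the RefSeq start were matched by symbol for 41 of the 50 genes, some with more than 1 start. The cover was uneven, with 19 of the 27 listed lysosomal genes and 22 of the 23 autophagy genes. *GLB1*, which has no value here, is among the 19. CACGTG was present for 8 of them (19.5%), against 10.5% of 15358 named genes and 8.77% of all 27305 genes with a promoter in the table. By arm it was found for 6 of 19 lysosomal genes (31.6%) and for 2 of 22 autophagy genes (9.09%). Genes without a promoter in the table are in neither share. TCACGTGA was present for 5 of the 41 genes (12.2%), against 1.59% of the named genes and 1.18% of all genes. By arm it was found for 4 of 19 lysosomal genes (21.1%) and for 1 of 22 autophagy genes (4.55%).

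The promoters that hold the motif are shown because this feature of sequence was more frequent among the lysosomal genes with a promoter. Each is read 5′ to 3′ along the gene from RefSeq on GRCh38.p14, with CACGTG in capitals, as the whole window for *LAMP1* and as 100 or 120 bases for the others.
LAMP1 (chr13:113296989-113297288, plus strand): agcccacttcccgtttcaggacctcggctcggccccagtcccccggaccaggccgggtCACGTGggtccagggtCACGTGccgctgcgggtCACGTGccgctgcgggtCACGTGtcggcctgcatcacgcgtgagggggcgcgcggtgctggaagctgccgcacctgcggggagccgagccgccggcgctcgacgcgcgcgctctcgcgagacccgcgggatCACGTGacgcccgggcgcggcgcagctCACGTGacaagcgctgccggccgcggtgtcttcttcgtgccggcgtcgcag
MCOLN1 (chr19:7522554-7522653, plus strand): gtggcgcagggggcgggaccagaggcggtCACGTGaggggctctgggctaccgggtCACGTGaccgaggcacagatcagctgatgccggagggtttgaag
GAA (chr17:80101481-80101600, plus strand): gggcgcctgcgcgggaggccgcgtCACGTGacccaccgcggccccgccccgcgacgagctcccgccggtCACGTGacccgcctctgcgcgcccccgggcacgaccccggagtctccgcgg
CTSA (chr20:45891265-45891364, plus strand): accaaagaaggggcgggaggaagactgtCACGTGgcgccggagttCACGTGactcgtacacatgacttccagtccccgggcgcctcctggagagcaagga
CTSD (chr11:1763908-1764007, minus strand): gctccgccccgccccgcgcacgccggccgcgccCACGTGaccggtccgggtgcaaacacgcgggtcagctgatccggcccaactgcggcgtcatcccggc
NEU1 (chr6:31862882-31862981, minus strand): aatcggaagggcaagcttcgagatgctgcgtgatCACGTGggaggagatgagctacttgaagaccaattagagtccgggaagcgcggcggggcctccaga
ATG3 (chr3:112561913-112562012, minus strand): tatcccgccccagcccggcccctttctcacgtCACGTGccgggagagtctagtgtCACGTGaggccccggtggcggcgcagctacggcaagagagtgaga
ATG14 (chr14:55411791-55411890, minus strand): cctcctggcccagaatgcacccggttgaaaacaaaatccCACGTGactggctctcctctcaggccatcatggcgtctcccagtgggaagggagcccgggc

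*LAMP1* held 6 matches, which began at -192, -176, -159, -142, -28 and -1 from the start. *MCOLN1*, *GAA*, *CTSA* and *ATG3* held 2 each, and *CTSD*, *NEU1* and *ATG14* held 1 each. The 8 genes had a median difference of -0.36 between the arrays, and 7 of them lay below 0, *ATG14* being above. The 32 measured genes whose promoters held no match had a median of -0.06. The 2 groups differ in make-up, with 6 lysosomal and 2 autophagy genes with a match, and 12 and 20 without. The contrast of their medians thus also holds the difference between the arms. Within the lysosomal arm the medians were closer, at -0.42 for the 6 genes with a match and -0.33 for the 12 without. All 6 with a match and 8 of the 12 without lay below 0, where 22 of the 26 measured lysosomal genes did. With TCACGTGA the order of the medians was the opposite, at -0.36 for the 4 lysosomal genes with a match and -0.44 for the 14 without. Over all named genes the median was 0.04 both for the 1613 with CACGTG and for the 13745 without. For the 244 named genes with TCACGTGA it was -0.05, with 146 of them below 0, and for the 15114 without it 0.04, with 6104 below 0. A match is a run of letters and does not show that either factor was bound.

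**Figure D3:**
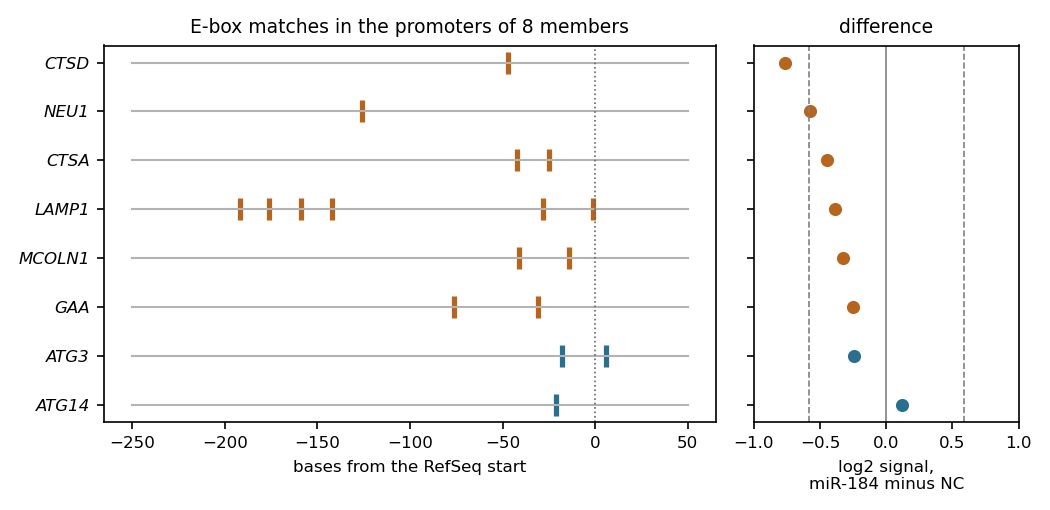
Left, position of each CACGTG match (tick, at its first base) in bases from the RefSeq start (x axis; the dotted line is the start) for the 8 genes that hold one, lysosomal in brown and autophagy in blue. Right, the difference of their log2 signals, miR-184 minus NC, with dashed lines at the 1.5-fold threshold; the genes are ordered from *CTSD* (-0.77) to *ATG14* (0.12).

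The genes of lysosomal membrane proteins lay close together. LAMP1 and LAMP2 are the abundant glycoproteins that line the membrane, SCARB2 carries glucocerebrosidase to the lysosome, and MCOLN1 is a channel that releases calcium from it. *LAMP1* read 8.12 with miR-184 and 8.50 with NC, a difference of -0.39. *MCOLN1* read 6.34 and 6.66 (-0.33). *SCARB2* read 9.18 and 9.42 (-0.24), and *LAMP2* 11.38 and 11.48 (-0.09). All 4 were below 0 and none passed the threshold.

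The cathepsins, the main lysosomal proteases, differed between -2.14 and 0.62. *CTSS*, a cysteine protease best known from antigen presentation, where it trims the invariant chain, read 5.96 with miR-184 and 8.10 with NC. It was 4.41-fold lower (-2.14), and 32 of the 22368 named genes differed further in that direction. *CTSD*, the chief aspartic protease, was at 11.15 against 11.91, 1.70-fold lower (-0.77). *CTSL*, a cysteine protease close to cathepsin V, went the other way, at 7.27 against 6.65, 1.54-fold higher (0.62). These 3 were the cathepsins past the threshold, 2 of 8 lower (25%) and 1 higher (12.5%). Among named genes at or above the median signal 7.77% were lower and 6.25% higher. *CTSC*, which activates serine proteases of granules, differed by -0.45 (8.60 and 9.05). *CTSA*, a carboxypeptidase that also protects neuraminidase and beta-galactosidase, differed by -0.44 (13.03 and 13.47). *CTSB* (-0.14) and *CTSH* (-0.11) lay close to 0, and *CTSZ* was at 7.71 against 7.47 (0.24). With *CTSS* included, 6 of the 8 were below 0 and the median was -0.29.

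The rise of *CTSL* did not pass the threshold when the differences were centred on the median of all genes (0.578, where the threshold is 0.584). Its relatives on the array were *CTSV* (7.21 and 6.80, a difference of 0.41) and the pseudogenes *CTSLP2* (0.30) and *CTSLP8* (0.11). Whether the *CTSL* feature also detects these was not tested.

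TPP1 and PPT1 are enzymes whose loss causes neuronal ceroid lipofuscinosis, a storage disorder of neurons. *TPP1*, which removes tripeptides from the ends of proteins, read 8.26 with miR-184 and 9.51 with NC, 2.38-fold lower (-1.25). It is in the list the study published of genes that were lower on these arrays and predicted as miR-184 targets, so its direction is not independent of that choice. *PPT1*, which removes palmitate from proteins, read 11.04 and 10.92 (0.12). Without *TPP1* the lysosomal genes had a median of -0.39, 4 of 25 were lower (16%), and 21 of 25 lay below 0. The shares over named genes at or above the median signal were 7.77% lower and 51.2% below 0.

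All 8 measured enzymes of glycan breakdown were below 0, with a median of -0.42, and 1 passed the threshold (12.5%). Among named genes at or above the median signal 51.2% lay below 0 and 7.77% were lower. *GLA*, alpha-galactosidase A, the enzyme missing in Fabry disease, read 7.65 with miR-184 and 8.45 with NC, 1.74-fold lower (-0.80). Next came *NEU1*, the sialidase that works in a complex with CTSA, at 5.12 against 5.70, and *GUSB*, beta-glucuronidase, at 8.02 against 8.59. Both differed by -0.57, short of the threshold, and both were past it when the differences were centred (-0.61 each). *NEU1* had 8 features, of which 7 carried identical values, and the other differed by -0.56. *MAN2B1*, lysosomal alpha-mannosidase, differed by -0.43 (5.94 and 6.37). *SGSH*, a sulfatase of heparan sulfate, differed by -0.40 (4.63 and 5.03), and *HEXA*, the alpha chain of hexosaminidase, by -0.35 (7.66 and 8.01). *GAA*, which degrades glycogen, was at -0.25, and *NAGLU*, a second enzyme of heparan sulfate, at -0.06 (4.95 and 5.01).

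In the group of lipid breakdown, 1 of 4 genes was lower (25%), where 7.77% of named genes at or above the median signal were lower. That share rests on 1 gene. *ASAH1*, acid ceramidase, which splits ceramide to sphingosine, read 7.89 with miR-184 and 9.08 with NC, 2.28-fold lower (-1.19). *PSAP*, whose product is cut into the saposins that present lipids to the enzymes, read 13.43 and 13.84 (-0.41). *ACP2*, lysosomal acid phosphatase, read 6.67 and 7.12 (-0.45). *LIPA*, the lipase that frees cholesterol and fatty acids from lipoproteins, lay above 0, at 6.96 against 6.61 (0.35).

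**Figure D4:**
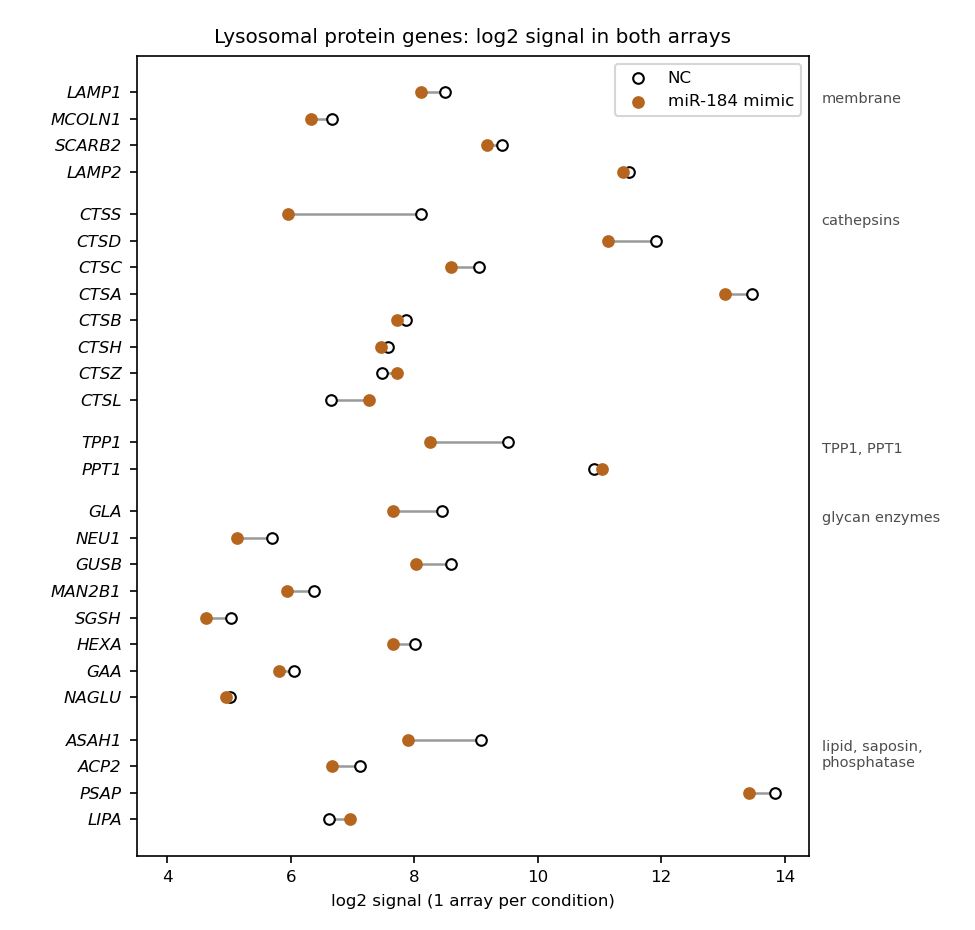
Log2 signal (x axis) of the 26 measured lysosomal genes in the NC array (open circles) and the miR-184 array (brown circles), 1 array per condition, grouped by role. The open circle lies to the right of the brown one for 22 genes, furthest for *CTSS* (8.10 and 5.96), and to the left for *CTSL*, *CTSZ*, *PPT1* and *LIPA*.

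Among the autophagy genes, those that start the process stayed inside the threshold. *ULK1*, the kinase that starts autophagosome formation, read 4.95 with miR-184 and 5.27 with NC (-0.32). Its scaffold partner *ATG13* read 9.20 and 9.58 (-0.38). *ULK2*, the second kinase of this kind, differed by 0.12 (4.70 and 4.58).

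The lipid kinase complex and the proteins that read its product held both of the higher autophagy genes. Those 2 were 8.7% of the 23 genes of that arm, where 6.25% of named genes at or above the median signal were higher. *BECN1*, the Beclin 1 subunit of the class III PI3-kinase, read 8.81 with miR-184 and 8.21 with NC, 1.52-fold higher (0.60), and was inside the threshold after centring (0.56). *ATG14*, which directs the complex to autophagy, differed by 0.12 (9.20 and 9.08). *UVRAG*, which takes its place in the form that acts on endosomes, differed by -0.12 (8.95 and 9.08). *WIPI1*, which binds PI3P at the growing membrane, was at 9.09 against 8.21, 1.84-fold higher (0.88), and 299 named genes differed further in that direction. Its paralog *WIPI2*, which recruits ATG16L1, was at 7.44 against 7.21 (0.23). The lipid transfer protein gene *ATG2A* (-0.05) and the scramblase gene *ATG9A* (7.21 and 7.44, -0.23) lay below 0.

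The conjugation enzymes lay on both sides of 0 and none passed the threshold. *ATG12*, the ubiquitin-like protein joined to ATG5, was lowest at -0.41 (7.81 and 8.22), and *ATG5* itself was highest at 0.28 (8.77 and 8.49). *ATG3*, which passes ATG8 proteins to lipid, differed by -0.24 (10.14 and 10.39). *ATG7*, the activating enzyme of both chains, was at 0.14, and *ATG16L1*, which completes the complex, at 0.07.

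The 3 genes of the ATG8 family differed from each other in direction. *GABARAPL1* read 7.80 with miR-184 and 8.78 with NC, 1.98-fold lower (-0.99). *GABARAPL2* read 9.23 and 9.27 (-0.04), and *MAP1LC3B*, the source of the LC3 protein used to mark autophagosomes, 8.29 and 7.98 (0.31). Their close relatives were *GABARAP* at -0.54 (11.05 and 11.59), *GABARAPL3* at 0.24 (5.39 and 5.16) and *MAP1LC3B2* at 0.54 (5.20 and 4.66). Whether the features tell these related transcripts apart was not tested.

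None of the cargo receptors passed the threshold. *SQSTM1*, which encodes p62, read 7.63 with miR-184 and 7.69 with NC (-0.07). *OPTN*, a receptor for bacteria and mitochondria, read 9.37 and 9.34 (0.04), and *NBR1*, a receptor related to p62, 7.43 and 7.68 (-0.25).

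**Figure D5:**
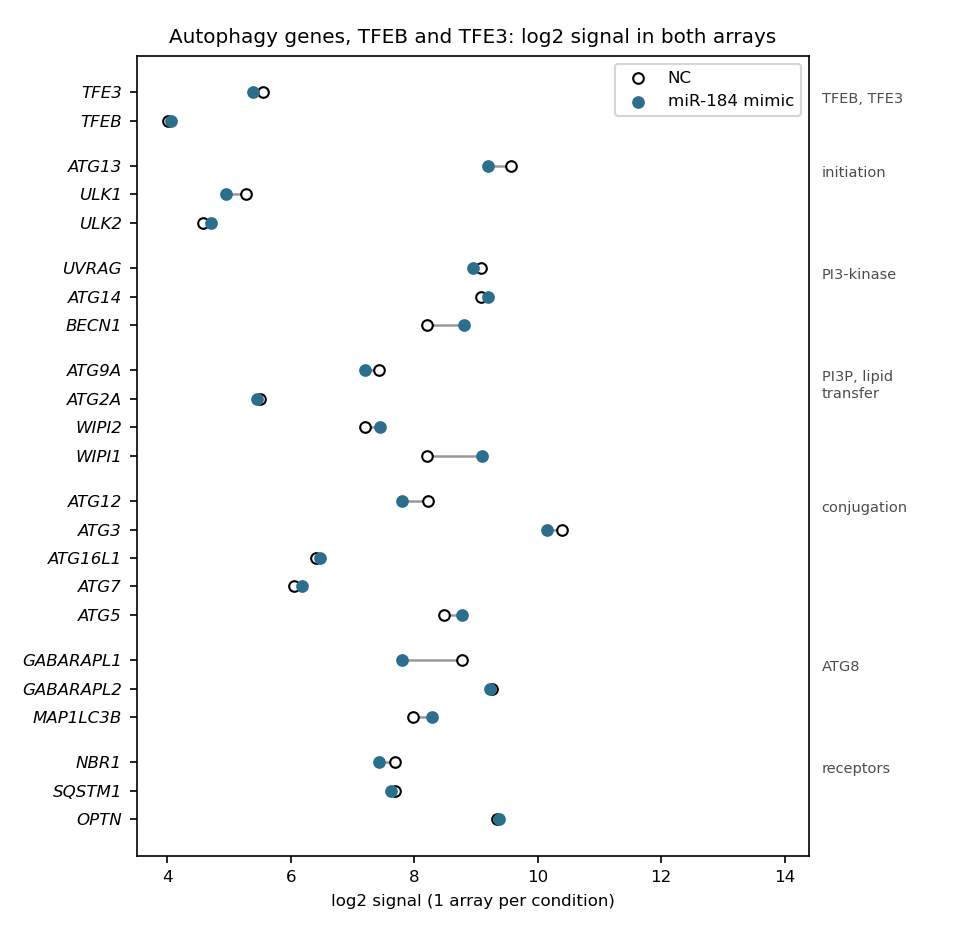
Log2 signal (x axis) of the 23 autophagy genes, *TFEB* and *TFE3* included, in the NC array (open circles) and the miR-184 array (blue circles), 1 array per condition, grouped by role. The widest gaps are those of *GABARAPL1* (8.78 in NC and 7.80 with miR-184) and *WIPI1* (8.21 and 9.09), and the other pairs lie closer together.

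A further 151 genes of lysosomes and autophagy, in 8 lists, were taken for their function, and 130 of them were measured. Of these 14 were lower and 3 higher (10.8% and 2.31%), with a median of -0.08, and 78 lay below 0 (60%). The shares of lower and higher genes over all named genes were 4.17% and 3.74%. They were 7.77% and 6.25% at or above the median signal, where 116 of the 130 lay and where 51.2% of named genes lay below 0. In 3 lists of lysosomal proteins, V-ATPase subunits included, 9 of 62 genes were lower (14.5%) and 0 higher, with a median of -0.15. In 3 lists of autophagy formation, receptors and fusion, 3 of 46 were lower and 3 higher (6.52% each), close to the shares at or above the median signal, with a median of 0.00.

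Of 22 further lysosomal enzymes and cofactors 5 were lower (22.7%) and 18 lay below 0 (81.8%), with a median of -0.14. *PLBD2*, a protein of the lysosomal lumen related to phospholipase B, read 5.02 with miR-184 and 7.52 with NC, 5.64-fold lower (-2.50). *MANBA*, beta-mannosidase, was at 7.31 against 8.70, 2.62-fold lower (-1.39). *DNASE2*, which degrades DNA in lysosomes, was at 7.18 against 8.30, 2.17-fold lower (-1.12). The carboxypeptidase gene *SCPEP1* (-0.78) and *GALNS*, a sulfatase of keratan sulfate (-0.71), were lower too. Like *TPP1*, *PLBD2* is on the published list of selected genes, as is the membrane protein gene *SIDT2*. Both are among the 9 lower genes of the 3 lysosomal lists, so the 14.5% given for those lists includes them. Without both, 12 of the 128 further genes were lower (9.38%), against 7.77% of named genes at or above the median signal.

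Of 17 further membrane proteins 3 were lower (17.6%, median -0.16). Over all named genes 4.17% were lower, and over those at or above the median signal 7.77%. *LAMP3*, a LAMP relative of mature dendritic cells, read 7.77 with miR-184 and 8.79 with NC (-1.03). *SIDT2*, a lysosomal nucleic acid transporter, read 5.94 and 6.96 (-1.02), and *SLC17A5*, which exports sialic acid, 6.87 and 7.53 (-0.66). Of 23 V-ATPase subunits, which acidify the lumen, *ATP6V0A2* was lower (6.75 and 7.44, -0.69), and the median was -0.12. Of 8 genes of the mannose 6-phosphate route and sorting, the adaptor gene *GGA3* was lower (-0.64), with a median of -0.16. Of 14 genes that dock or control mTORC1 at the lysosome, *NPRL3*, of a complex that restrains it, was lower (-0.67), with a median of 0.01. With 1 lower gene each, the shares were 4.35% for V-ATPase subunits, 12.5% for sorting and 7.14% for mTORC1 docking. The V-ATPase and mTORC1 shares were below 7.77%, and the sorting share rests on 1 of 8 genes.

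The lists of autophagy held the 3 higher genes. They were 6.52% of the 46 measured, close to the 6.25% of named genes at or above the median signal. *TMEM41B*, a scramblase of the endoplasmic reticulum needed for autophagosome formation, read 10.00 with miR-184 and 8.86 with NC, 2.20-fold higher (1.14). *ATG4A*, a protease that trims ATG8 proteins, was at 7.37 against 6.43, 1.91-fold higher (0.93), and the receptor gene *TAX1BP1* at 12.75 against 12.16 (0.60). *ZFYVE1*, which binds PI3P at the site of formation, was lower (6.94 and 7.62, -0.68), as were the ferritin receptor gene *NCOA4* (11.02 and 11.64, -0.62) and the tethering subunit gene *VPS18* (6.21 and 6.96, -0.75). *TAX1BP1* was inside the threshold after centring (0.56) and *NCOA4* after quantile normalization (-0.58).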

How the data were processed

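The authors hybridised total RNA of HCECs to the Affymetrix Human Transcriptome Array 2.0 and normalized it with Expression Console, according to the methods. Per feature, the authors deposited 1 log2 signal for each array. Per the labels, Cy3 and an Agilent kit were used, and Agilent Feature Extraction 9.1 stands in the submitters' processing notes, but the identifiers of the features belong to the Affymetrix design. For the build of its annotation the sources used here gave nothing.

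Features with 1 symbol in the platform annotation (23730 of 65854) were named, and 303 symbols were updated through the RefSeq table of GRCh38.p14. Another 1539 features had several symbols and 40585 none listed, and these named no gene. Values were used as deposited, with no filter. Differences of log2 signals were taken, counted at 1.5-fold in each direction, and summarised by medians. The number of arrays limits the precision. All genes of the 50 past the threshold, the extremes of each role and those near the line are named, and of the 151 further genes those past it. The 50 genes, the lists and these rules were chosen with earlier results of these data known. Alternatives were centring, quantile normalization, a loess correction for signal level (span 0.3), the mean of all features, restriction to genes whose signal reached the median, and a threshold of 2-fold. Leaving out the genes of the published list was added after the data were seen. The steps were tested on simulated data. Python 3.11.15, numpy 2.4.6, pandas 2.3.3 and statsmodels 0.14.6 were used.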

Additional observations from a re-analysis of the deposited data

How the results depend on the processing

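The median of the lysosomal genes stayed between -0.44 and -0.32 and that of all 49 genes below 0 under every scaling tried, and no scaling moved the median of all named genes by as much as 0.1. The median of the autophagy genes, -0.04, turned to 0.0096 under quantile normalization. Centring the differences left 1 of the 3 higher genes among the 49, *WIPI1*, with 0 in the lysosomal arm and 1 in the autophagy arm. It raised the lower genes from 6 to 8, and in the lysosomal arm from 5 to 7, through *NEU1* and *GUSB*. The share of all named genes past the threshold after centring was not counted. At 2-fold, 3 of the 49 genes were lower and 0 higher, with 3 and 0 in the lysosomal arm and 0 and 0 in the autophagy arm. Of the 130 further genes 5 were lower and 1 higher. The share of all named genes past 2-fold was not counted, so these counts have no background beside them. For scale, 313 of the 22368 named genes lay below *GABARAPL1* (1.98-fold lower) and 262 above *ATG4A* (1.91-fold higher). Removal of the trend with signal and the mean of all features changed no call among the 66 genes compared. With TCACGTGA in place of CACGTG the members holding the motif had a median of -0.33. No paired analysis was possible because each condition has 1 array, and no replicate could be left out. No value has a replicate error, so that a difference near the threshold, such as those of *BECN1*, *CTSL*, *NEU1* and *GUSB*, could fall on either side of it.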
